A study of Mus musculus with 24 samples.

Results

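The chromatin around 8 genes that encode AP-1 transcription factors (Jun, Junb, Jund, Fos, Fosb, Fosl2, Batf and Atf3) was described in mouse haematopoietic stem and progenitor cells that had lost Daxx, a chaperone of histone H3.3. The 8 genes were listed by name, out of 21938 protein-coding genes on the standard chromosomes, and each was followed in a window of the gene and 30 kb on either side (GENCODE annotation, mm10 build). Open DNA was read out in 24 libraries of 11 groups with ATAC-seq, an assay whose enzyme, Tn5, cuts and tags accessible chromatin. The authors deposited 11 lists of open regions (peaks), 1 list per group, and 3 tables of sites whose read number differed between 2 genotypes, with the value of each library.

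All mice were C57BL/6, all cells came from bone marrow and every genotype, controls included, carried Cre +/-. Daxx-WT cells were Daxx +/+, Daxx-KO cells were Daxx F/F with exons 2 to 7 floxed, and double-knockout (DKO) cells were Daxx F/F Pu.1 F/F. CMPs (common myeloid progenitors), LT-HSCs (haematopoietic stem cells with long-term activity) and GMPs (progenitors of granulocytes and monocytes) were each represented by 2 Daxx-WT and 2 Daxx-KO libraries. Per the study's methods these cells were taken 3 weeks after tamoxifen from mice in which Rosa26CreERT2, which is active in all tissues, drove the deletion. A further set of LT-HSCs was taken 3 d.p.i. (days after induction of the deletion) from 3 Daxx-KO and 2 Daxx-WT libraries. KLS cells, a mixed population of stem and multipotent progenitors that express Kit and Sca-1 and lack lineage markers, were taken 3 w.p.i. (weeks after induction) from 3 Daxx-KO, 2 Daxx-WT and 2 DKO libraries. Per the methods, mice analysed at 3 d.p.i. carried Rosa26CreERT2 and were injected with tamoxifen. The methods name Mx1Cre for the mice with floxed Pu.1 and for KLS cells sorted 3 w.p.i. for RNA-seq. Mx1Cre is induced by pI:pC and is not restricted to blood cells, whereas the labels give the Cre without its driver. Between LT-HSCs 3 d.p.i. and KLS cells, the inducer thus cannot be told apart from cell type and time. A figure legend of the study gives one 3 d.p.i. control as Daxx +/F, whereas the labels give Daxx +/+. Mice of either sex were used, and their age is not given per library. The study describes its genomic replicates as biological, whereas the labels do not tie libraries to animals, and p-values measure only the spread between these libraries. In bulk libraries, fewer cells of a type and less signal per cell cannot be told apart.

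AP-1 is a dimer of basic leucine zipper proteins, in which a Jun protein pairs with another Jun or with a Fos, Batf or Atf protein and binds the letters TGACTCA or TGAGTCA. Jun, Junb, Fos and Fosb are immediate early genes: signals from growth factors, cytokines or stress switch them on within minutes without new protein, for Fos through the serum response factor, which binds a CArG box. Jund and Fosl2 are expressed more steadily, Batf binds together with interferon regulatory factors in immune cells, and Atf3 is induced by stress. Pu.1, encoded by Spi1, is the ETS factor that opens enhancers in myeloid cells.

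The floxed exons held fewer reads in the knockouts. The site over Daxx exons 2 and 3 held 61.2 to 109 scaled reads in the 3 d.p.i. Daxx-KO libraries and 201 to 366 in Daxx-WT. The site over Daxx exons 6 and 7 differed by a log2 of -2.84 in KLS Daxx-KO and of -3.08 in DKO cells. Spi1 exon 5 held 2.12 to 4.68 scaled reads in DKO and 31.1 to 58.1 in Daxx-WT cells. A promoter peak was present for 2 to 6 of 8 stem and progenitor markers per list (lowest in DKO, with Kit and Hlf), for 1 to 6 of 7 granulocyte and monocyte markers and for 2 to 5 of 11 markers of other cells, among which Klf1 and Col1a1 had one in every list. The peak lists held 22156 (DKO) to 70455 (LT-HSC Daxx-KO) peaks with a median width of 607 to 944 bp, and list length moved with genotype in every cell type. The site tables had a mean of 4.21 to 9.60 reads per 600-bp window and library for LT-HSCs 3 d.p.i., 4.54 to 8.36 for KLS Daxx-KO and 7.45 to 16.0 for the DKO table, with the highest mean in a DKO library. The part of list length, depth or cell composition in the results was not tested.

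Sequences chosen from peaks and sites described below are shown first, on the strand of the gene (mm10, with positions on the + strand). Capitals mark the match to a searched motif. They mark a CArG box in the promoters of Fos and Fosb, whose accessibility was higher in LT-HSCs 3 d.p.i. They also mark a CArG box in a site upstream of Jun, which was higher in DKO cells. In the peak over the annotated start of Jund they mark a cyclic AMP response element (CRE), and in the peaks upstream of Junb and Fosb and in the Atf3 intron they mark AP-1 motifs. At the sites upstream of Fosl2 and Batf, which were lower in DKO cells, they mark a Pu.1 motif, GAGGAAGT or its other strand ACTTCCTC. The marked Fosl2 motif lies in a peak, and the Batf motif lies outside every peak of the lists.
Fos promoter (chr12:85473506-85473665): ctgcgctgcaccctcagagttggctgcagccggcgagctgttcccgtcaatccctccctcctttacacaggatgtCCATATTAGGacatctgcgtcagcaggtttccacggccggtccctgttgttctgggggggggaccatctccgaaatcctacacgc
Fosb promoter (chr7:19310233-19310392): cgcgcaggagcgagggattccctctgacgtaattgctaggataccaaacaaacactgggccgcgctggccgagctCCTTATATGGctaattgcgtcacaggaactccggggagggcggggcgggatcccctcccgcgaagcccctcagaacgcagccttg
Jun upstream (chr4:95075372-95075401): atgccagaggCCAATATTGGcttgccaagg
Jund start (chr8:70698724-70698753): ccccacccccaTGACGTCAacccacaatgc
Junb upstream 2 (chr8:84985627-84985787): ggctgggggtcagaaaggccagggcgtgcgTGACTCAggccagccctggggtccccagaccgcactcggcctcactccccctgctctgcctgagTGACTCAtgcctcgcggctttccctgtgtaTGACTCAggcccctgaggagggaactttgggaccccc
Fosb upstream (chr7:19316751-19317036): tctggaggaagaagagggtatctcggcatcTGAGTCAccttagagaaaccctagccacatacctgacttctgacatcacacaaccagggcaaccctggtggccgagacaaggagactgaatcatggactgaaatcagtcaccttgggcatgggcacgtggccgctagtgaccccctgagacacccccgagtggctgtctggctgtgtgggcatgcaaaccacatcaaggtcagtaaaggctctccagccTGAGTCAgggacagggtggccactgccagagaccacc
Atf3 intron (chr1:191193740-191193866): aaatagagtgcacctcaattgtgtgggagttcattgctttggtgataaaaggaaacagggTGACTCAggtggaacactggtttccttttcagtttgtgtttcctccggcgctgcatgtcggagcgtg
Fosl2 upstream (chr5:32110838-32110965): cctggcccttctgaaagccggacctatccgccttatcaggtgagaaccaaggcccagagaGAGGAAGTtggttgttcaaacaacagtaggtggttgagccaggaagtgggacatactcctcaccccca
Batf upstream (chr12:85669840-85669967): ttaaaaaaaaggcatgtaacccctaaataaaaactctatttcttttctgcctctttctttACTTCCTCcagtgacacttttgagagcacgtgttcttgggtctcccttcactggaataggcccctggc

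The genes lay at chr4:95049034-95052222 (Jun, - strand), chr8:84974484-84978718 (Junb, -), chr8:70698949-70700616 (Jund, +), chr12:85473890-85477273 (Fos, +), chr7:19302696-19310051 (Fosb, -), chr5:32135801-32157842 (Fosl2, +), chr12:85686669-85709087 (Batf, +) and chr1:191170296-191218039 (Atf3, -). Jun and Jund consist of a single exon. The windows of Jun, Fos, Fosl2 and Batf held no other protein-coding gene, that of Atf3 held Fam71a, and that of Fosb held Ppm1n and Rtn2. The window of Jund held 4 others (Lsm4, Iqcn, Gm3336, Pde4c) and that of Junb 6 (Rtbdn, Rnaseh2a, Gm49661, Prdx2, Hook2, Best2). Merged over all lists, the windows held 92 open regions, and for 58 of them the member's own start was the nearest gene start. The number was 5 for Jun, 16 for Junb, 10 for Jund, 14 for Fos, 17 for Fosb, 7 for Fosl2, 10 for Batf and 13 for Atf3.

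The promoters of 7 of the 8 genes were open in every list, and the share of all protein-coding genes with such a promoter was not counted. A peak lay within 1 kb of the gene start of Jun, Junb, Jund, Fos, Fosb, Fosl2 and Batf in all 11 lists, across LT-HSCs, CMPs, GMPs and KLS cells and in Daxx-WT, Daxx-KO and DKO cells. Atf3 had a peak at its annotated start in LT-HSC Daxx-WT, LT-HSC Daxx-KO and CMP Daxx-WT cells. The start that RefSeq gives for Atf3 lies 34.7 kb further into the gene, and the peak there, 1318 to 1629 bp wide, was in all 11 lists. In all, 26 of the 92 regions were in every list, with no count over all regions beside it. They were 8 in the window of Junb, 6 of Fosb, 4 of Fos, 2 each of Jund, Batf and Atf3, and 1 each of Jun and Fosl2.

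**Figure D1:**
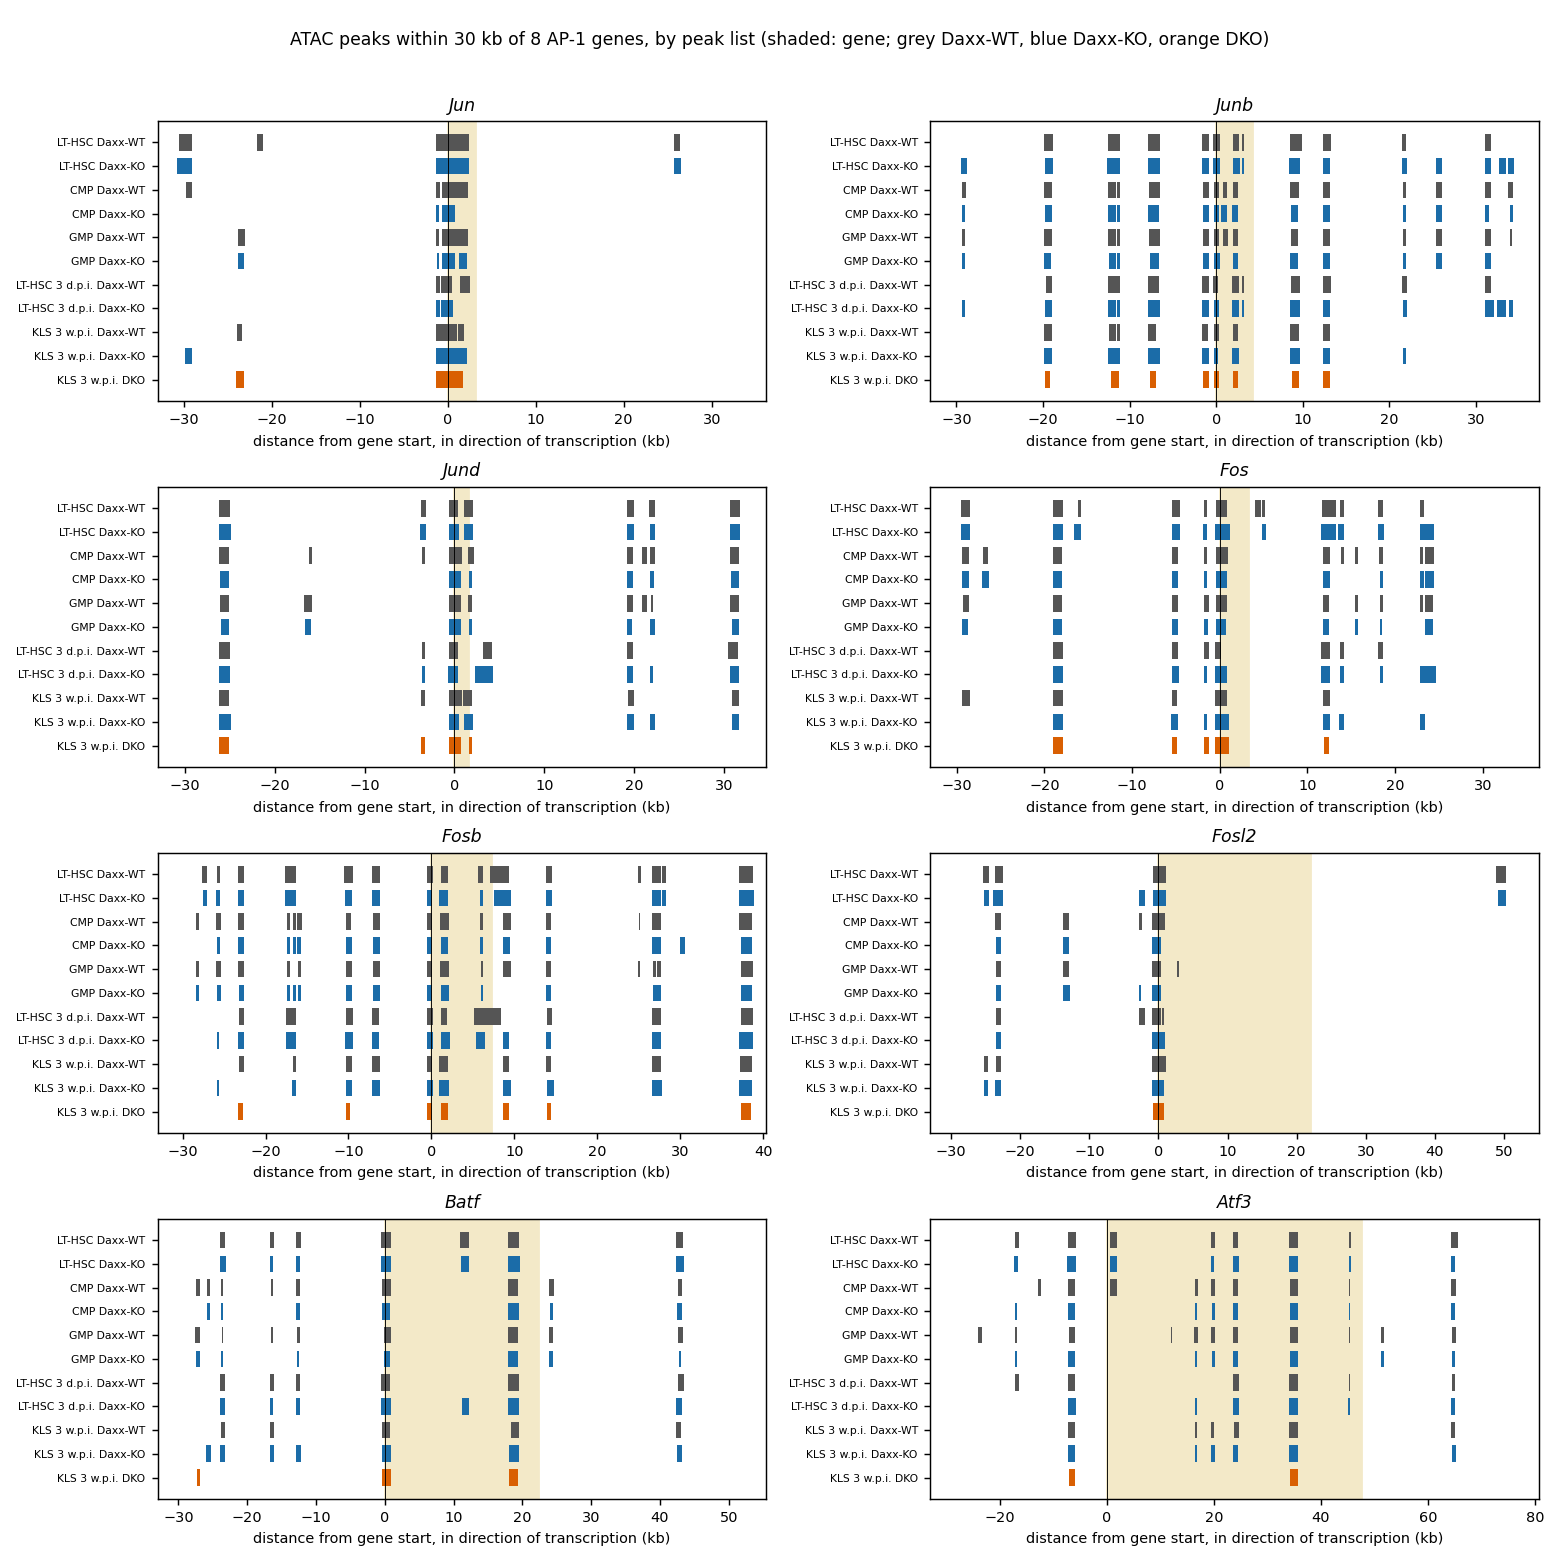
Peaks of the 11 lists in the windows of the 8 AP-1 genes; each row is 1 list, each bar is 1 peak, the x axis is the distance from the gene start in kb and the shaded stretch is the gene. Peaks at the start were present in every row except for Atf3, whose start was open in 3 lists, and the bottom row (DKO) held the fewest peaks for 6 of the 8 genes.

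Jun had the widest promoter peak of the 8 genes in the LT-HSC and KLS lists. Its promoter peak was 3683 bp wide in LT-HSC Daxx-WT and 3690 bp in LT-HSC Daxx-KO cells, among the very widest of either list. In KLS cells it was 2345 bp wide in Daxx-WT, 3536 bp in Daxx-KO and 3029 bp in DKO cells. In LT-HSCs 3 d.p.i., CMPs and GMPs, 2 or 3 separate peaks covered the same place. At the promoter of Fosb the widest peak of each list measured 622 to 1206 bp, and that of Junb was covered by 2 or 3 peaks of at most 798 bp.

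Peak strength was available for 5 lists, as the fold enrichment of a peak over its background. Among promoters in KLS Daxx-WT cells, that of Batf had the highest fold enrichment (6.22), followed by Fosb (5.56), Fos (5.49), Jun (5.13), Fosl2 (4.51), Jund (4.06) and Junb (4.01). With 1 list per group, the order carries no replicate error. The highest values in the windows lay away from the 8 starts. In LT-HSCs 3 d.p.i. a peak 19.4 kb upstream of Junb, over exons of Hook2, had 11.36 (Daxx-WT) and 11.93 (Daxx-KO), and a peak 18.4 kb upstream of Fos had 11.35 and 11.79. A peak at the start of Lsm4, near Jund, had 10.17 and 11.24. A peak 6.7 kb upstream of Atf3 had a fold enrichment of 11.05 and 11.14 in LT-HSCs 3 d.p.i. (Daxx-WT and Daxx-KO), and of 7.65, 9.53 and 5.99 in KLS Daxx-WT, Daxx-KO and DKO cells. A peak in an intron of Batf, 18.7 kb from its start, had 9.49 and 11.05 in LT-HSCs 3 d.p.i., and 9.54, 11.66 and 6.39 in KLS Daxx-WT, Daxx-KO and DKO cells. At the Atf3 and Batf peaks the order in KLS cells was Daxx-KO, Daxx-WT, DKO.

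Over all shared peaks, fold enrichment was mostly highest in Daxx-KO and lowest in DKO cells. Of the peaks that Daxx-WT and Daxx-KO shared in LT-HSCs 3 d.p.i., the fold enrichment was higher in Daxx-KO for 31 of 50 near the AP-1 genes (62.0%) and for 74.8% of the list. In KLS cells it was higher in Daxx-KO for 33 of 44 (75%), beside 88.6% of the list. Between DKO and Daxx-WT KLS cells it was higher in DKO for 12 of 33 (36.4%), beside 15.9% of the list. The promoter peaks of Jun, Jund, Fos and Fosb went the other way in LT-HSCs 3 d.p.i., with 4.13 in Daxx-WT and 3.69 in Daxx-KO for Jund, 5.10 in Daxx-WT and 4.71 in Daxx-KO for Jun, 5.81 and 5.18 for Fos, and 5.74 and 4.53 for Fosb. The Fos peak was at the same time wider, at 689 bp in Daxx-WT and 1275 bp in Daxx-KO. Fold enrichment belongs to a peak's own background and width, and read numbers at these promoters are given next.

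In LT-HSCs 3 d.p.i., more reads fell on the promoters of Jun, Fos and Fosb after Daxx loss. These 3 of the 8 genes had a listed site within 1 kb of their start that was higher in Daxx-KO, beside 1.87% of all protein-coding genes, and 0 of the 8 had a lower one, beside 1.69%. Within 30 kb, 4 of 8 had a higher site (all genes 19.7%) and 3 of 8 a lower one (36.4%). Of the 16 sites in the windows, 10 were higher and 6 lower, so 62.5% were higher, beside 29.1% of the whole table. The libraries of the groups did not overlap at any of the 16 sites, which holds for 99.5% of the table, since the authors listed sites by a test on the same libraries. None passed limma with Benjamini-Hochberg adjustment over all windows tested (0 of 16, beside 0.0% of the table). The lowest adjusted p of limma was 0.301. An unadjusted limma p under 0.05 was found at 11 of the 16, beside 11454 of 11927 sites of the table. Among promoter sites it was 0.14 at Jun, 0.0886 and 0.024 at Fos, and 0.0188 and 0.0504 at Fosb. With 3 against 2 libraries the smallest two-sided p of an exact permutation test is 0.1.

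The site over exon 1 of Jun held 417, 511 and 349 scaled reads in the Daxx-KO libraries, against 316 and 319.8 in Daxx-WT. The lowest Daxx-KO library lay just above the Daxx-WT libraries, and the means differed 1.34-fold (log2 0.42). At the Fos promoter, 0.4 kb upstream of the start and over the CArG box shown above, 437, 434 and 367 reads in Daxx-KO stood against 293 and 317 in Daxx-WT (1.35-fold). Over exon 1 of Fos they held 414, 442 and 360.0 against 243 and 279 (log2 0.64, limma adjusted p with Benjamini-Hochberg adjustment 0.922). At both sites at the start of Fos every Daxx-KO library lay above both Daxx-WT libraries, by no more than the range within Daxx-KO. Another Fos site, over exons 3 and 4, held 139, 63.0 and 63.3 against 44.0 and 43.1. Its log2 difference of 1.02 fell to 0.54 without the highest Daxx-KO library. The flanks of Fos went the other way, with log2 differences of -1.17 at 6.8 kb upstream and -1.13 at 7.9 kb downstream of the start, at mean levels of 15.3 to 39.8 scaled reads and outside peaks.

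Fosb had 5 sites, all higher in Daxx-KO and all in peaks. The site over exons 1 and 2 held 1289, 819.9 and 849 scaled reads after Daxx loss against 581 and 529 in Daxx-WT, the highest level of the 16 sites (1.78-fold, log2 0.83, limma adjusted p with Benjamini-Hochberg adjustment 0.745). The site at the start of Fosb, next to its CArG box, held 293, 236 and 273 against 179 and 192 (1.44-fold). Further sites lay 16.4 kb upstream (log2 0.60) and 8.4 and 9.5 kb downstream of the start (0.54 and 0.59). Jund had 2 lower sites, both over exons of the neighbouring gene Iqcn. The larger, centred 16.6 kb downstream of Jund, held 309, 335 and 411 against 695 and 780.2 (log2 -1.07). Fosl2 had 2 lower sites, at 25.5 kb upstream (-0.97) and over exon 4 (-1.16), and Atf3 had 1 higher site in an intron 41.2 kb from its start (1.10), none of these 3 in a peak. Junb and Batf had no listed site.

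**Figure D2:**
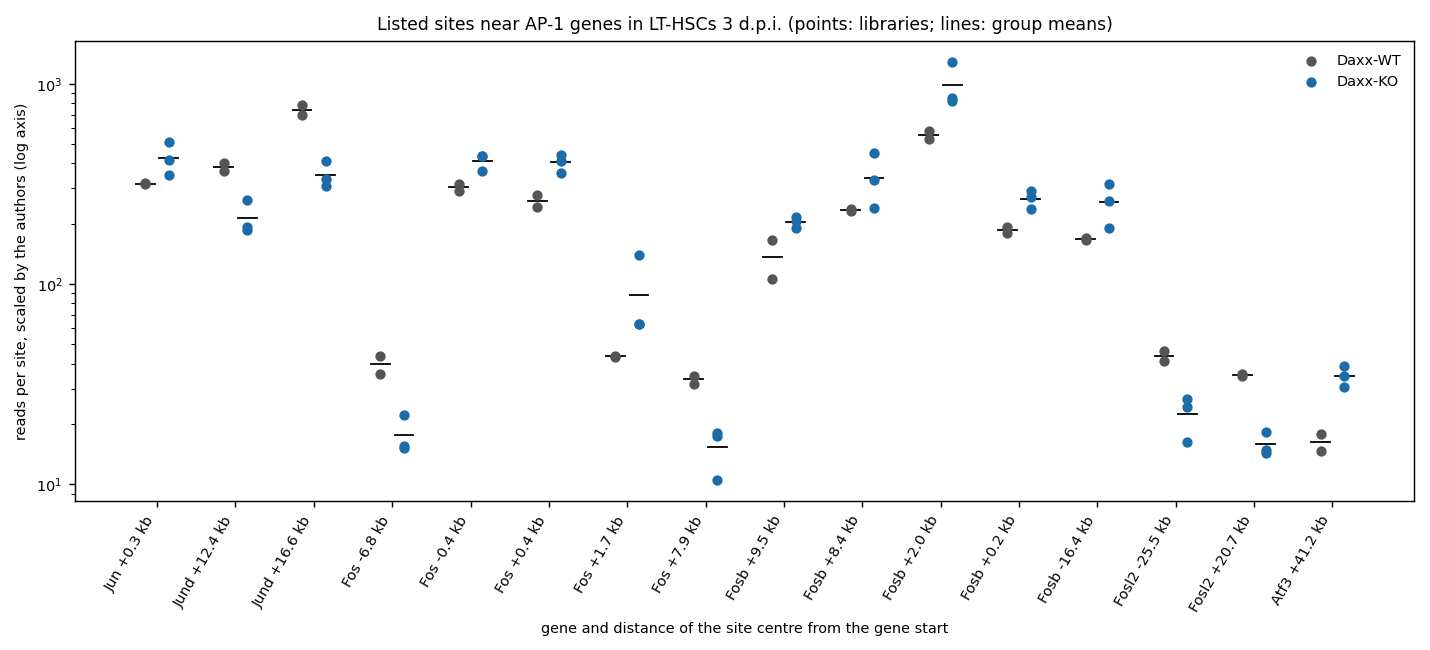
Scaled reads per library at the 16 listed sites near AP-1 genes in LT-HSCs 3 d.p.i., on a log axis; points are 3 Daxx-KO and 2 Daxx-WT libraries, short lines are group means, and sites are named by gene and distance of the centre from the gene start. The Daxx-KO points lie above both Daxx-WT points at the 10 sites of Jun, Fos, Fosb and Atf3 listed as higher and below them at the other 6.

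Promoters of other genes induced in the same way were also listed. Of 17 other immediate early genes, 5 had a promoter site higher in Daxx-KO LT-HSCs 3 d.p.i. (beside 1.87% of all genes): Ier5 (log2 0.48), Klf2 (0.48), Ier2 (0.46), Zfp36 (0.38) and Klf6 (0.30). The Klf2 site, at the start of a Krüppel-like factor gene, held 461 to 657 scaled reads in Daxx-KO and 394 in both Daxx-WT libraries after rounding. None of the 17 had a lower promoter site (all genes 1.69%), and within 30 kb 12 had a higher and 8 a lower site, beside 19.7% and 36.4% of all genes. Of 16 other AP-1 and related bZIP genes, Nfe2l2 had a higher promoter site (0.39) and Fosl1 a lower one (-1.21, at 9.54 to 25.3 against 39.4 to 52.5 scaled reads). Within 30 kb, 7 of these 16 had a higher and 10 a lower site. Of 9 upstream kinases, Map2k7, which activates the Jun kinases, had a higher promoter site (0.25), and 3 had a higher and 6 a lower site within 30 kb. Of 6 serum response and ternary complex factor genes none had a promoter site, 2 had a higher and 3 a lower site within 30 kb.

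In KLS cells 3 weeks after deletion, no promoter of the 8 genes carried a listed site. Within 1 kb of the start, 0 of the 8 had a higher site (all genes 1.18%) and 0 a lower one (4.08%). Within 30 kb, 4 of 8 had a higher site (15.8%) and 7 of 8 a lower one (53.7%). Of 18 sites, 5 were higher and 13 lower, so 27.8% were higher, beside 19.1% of the table. The libraries did not overlap at any of the 18 (99.6% of the table), and 0 passed limma with Benjamini-Hochberg adjustment (0.0% of the table). The lowest adjusted p of limma was 0.284. All 18 had an unadjusted limma p under 0.05, beside 16749 of 17311 sites of the table. Of the 5 higher sites 1 lay in a peak, and of the 13 lower sites 1 did, beside 64.0% and 9.68% of all higher and lower sites.

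At exon 2 of Fosb 116, 103 and 59.3 scaled reads in KLS Daxx-KO stood against 44.7 and 43.6 in Daxx-WT (log2 1.07). The highest and lowest Daxx-KO libraries were further apart than the lowest was from Daxx-WT. In an intron of Atf3, 23.9 kb from its start and over the AP-1 motif shown above, the libraries held 157, 192 and 174 against 102 and 109 (1.65-fold, log2 0.72). This was the higher site that lay in a peak, whose fold enrichment was 3.85 in Daxx-WT and 5.85 in Daxx-KO cells. A pair of sites downstream of Jund, at 3.2 kb between genes and at 5.6 kb in an intron of Iqcn, were higher by log2 0.99 and 1.06, and a Fos site 26.9 kb upstream by 0.99. The lower sites held few reads, with Daxx-KO means of 7.05 to 32.1 and Daxx-WT means of 20.8 to 54.8. Among them were a site 1.7 kb upstream of Atf3 (-1.48), a pair upstream of Jun (-1.63 and -1.33), a pair at Batf (-1.45 and -1.38), a pair upstream of Fosl2 (-1.48 and -1.28) and 3 at genes near Junb (-1.44 to -0.77). Of the other lists, 0 of 17 immediate early genes had a higher promoter site and 1 a lower one (Dusp2), 1 of 9 kinases had a lower one (Mapkapk2), 1 of 6 serum response and ternary complex factor genes had a lower one (Mrtfa), and 0 of 16 bZIP genes had either. Over all genes the promoter shares were 1.18% and 4.08%. Within 30 kb, where all genes had 15.8% and 53.7%, 5 immediate early genes had a higher and 10 a lower site, against 2 and 8 bZIP genes, 2 and 6 kinases, and 2 and 5 serum response and ternary complex factor genes.

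In DKO KLS cells, which lacked both Daxx and Pu.1, Fosl2 and Fosb had lower promoter sites, and distal sites went in both directions. The promoter count was 2 of 8 lower (all genes 11.5%) and 0 of 8 higher (4.76%), and within 30 kb 5 of 8 had a lower site (48.5%) and 6 of 8 a higher one (66.6%). Of 32 sites 21 were higher and 11 lower, so 65.6% were higher, beside 72.1% of the table. All 11 lower sites lay in a peak of DKO or Daxx-WT cells and 3 of the 21 higher sites did, beside 69.5% and 11.6% of the table. The libraries did not overlap at any of the 32 sites (100.0% of the table). By limma with Benjamini-Hochberg adjustment 17 higher and 5 lower sites passed, 22 of 32, beside 82.2% of the table. The calls depended on the scaling: with reads divided by each library's mean per window, which moved the median of the table by -0.70, 0 higher and 11 lower sites passed. They also depended on the DKO libraries, since 0 sites passed when either of the 2 was left out, and on Daxx-WT replicate 1, without which 11 higher and 2 lower sites passed. The tables were scaled separately and share the Daxx-WT libraries, so the KLS values of Daxx-KO and DKO are given side by side and were not compared.

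Fosl2 had the lowest log2 differences of the DKO table near the 8 genes. At 22.9 kb upstream of its start DKO held 53.0 and 79.6 scaled reads and Daxx-WT 209 and 199 (3.07-fold lower, log2 -1.62, limma adjusted p with Benjamini-Hochberg adjustment 0.000229). The peak at this place had a fold enrichment of 7.10 and 9.50 in Daxx-WT and Daxx-KO LT-HSCs 3 d.p.i., and of 6.34 and 8.28 in KLS Daxx-WT and Daxx-KO cells. It was present in 10 lists and absent in DKO. The adjoining site 25.0 kb upstream, which held the Pu.1 motif shown above, had 44.5 and 50.6 against 114 and 127 (log2 -1.35, adjusted p 0.00369 by limma with Benjamini-Hochberg adjustment). The site 22.9 kb upstream held a Pu.1 match as well, 22.1 kb from the start and outside the peak. At the Fosl2 promoter the libraries held 189.8 and 159 against 365 and 381 (log2 -1.09), and over exon 1, 65.8 and 73.1 against 114 and 127 (log2 -0.79). In each case both DKO libraries were below both Daxx-WT libraries by more than the spread within either group. By contrast, 2 sites in introns of Fosl2 outside peaks were higher, each by log2 1.66, at Daxx-WT means of 14.6 and 9.61.

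Fosb also had sites in both directions. The peak 6.7 kb upstream of Fosb, which carries 2 AP-1 motifs, was present in every Daxx-WT and Daxx-KO list and absent in DKO. Its site held 88.0 and 111 in DKO and 235 and 226 in Daxx-WT (log2 -1.22, limma adjusted p with Benjamini-Hochberg adjustment 0.00974). Over exon 1 the values were 105 and 111 against 198 and 168 (log2 -0.76). A site 23.1 kb upstream, in a peak of both groups, was higher, with 152 and 109 in DKO and 63.9 and 79.0 in Daxx-WT (log2 0.87). Outside peaks, a site 28.8 kb upstream held 59.4 and 44.0 in DKO and 4.44 and 20.8 in Daxx-WT. Its log2 difference of 2.03 was the highest near the 8 genes and ranged from 1.31 to 3.54 when single libraries were left out, since the Daxx-WT libraries were far apart. Batf had a lower site 16.3 kb upstream, with 39.2 and 62.8 against 133 and 72.4 (log2 -1.01), where the lower Daxx-WT library came near the higher DKO library. Batf also had higher sites at 26.7 and 22.3 kb upstream (1.61 and 1.22), the former in a DKO peak that was absent from the KLS Daxx-WT list.

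Atf3 had 3 lower sites, all in introns between 16.6 and 24.3 kb from its annotated start. The site at 19.8 kb held 45.6 and 43.1 in DKO and 92.3 and 92.1 in Daxx-WT (log2 -1.06). The site at 24.3 kb, which overlaps the one that was higher in KLS Daxx-KO cells, held 54.1 and 61.8 against 95.9 and 109.7 (log2 -0.83), and the peak there was absent in DKO. Jun had 4 higher sites, all upstream. The one at 23.5 kb, over the CArG box shown above, held 229 and 156 in DKO and 79.0 and 97.6 in Daxx-WT (2.18-fold, log2 1.12). A peak at this place was present in KLS Daxx-WT and DKO and absent in KLS Daxx-KO cells. The KLS Daxx-WT peak left out the box, and the DKO peak ended at its edge. All 6 Fos sites were higher and outside peaks. The one 8.1 kb downstream of the start held 30.8 and 41.2 against 11.5 and 8.77 (3.54-fold, log2 1.83, limma adjusted p with Benjamini-Hochberg adjustment 8.97e-05), and overlaps the 3 d.p.i. site that was lower in Daxx-KO LT-HSCs. The 4 Jund sites were higher by log2 1.09 to 1.36 in 3 cases and by more at 29.0 kb, all nearest to the start of another gene. The Junb window had 1 site, at Prdx2 and Rnaseh2a (-0.77), and the Junb promoter had none.

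**Figure D3:**
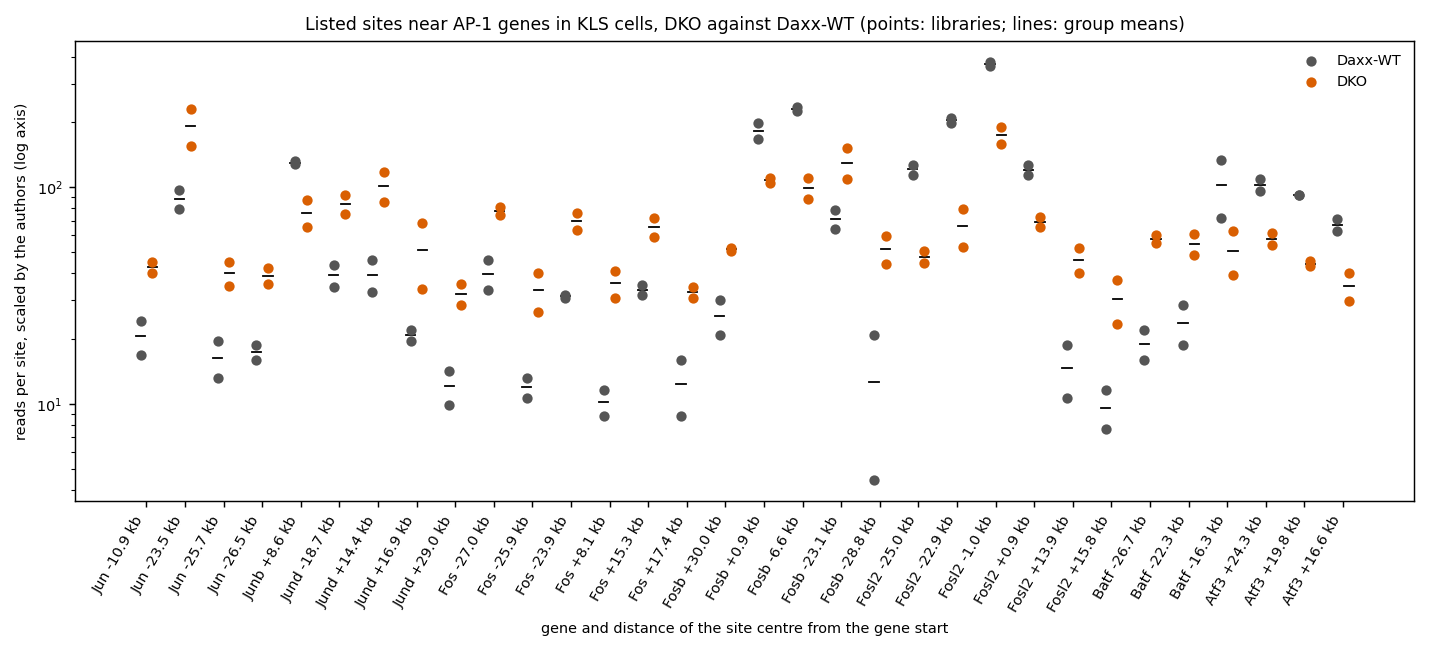
Scaled reads per library at the 32 listed sites near AP-1 genes in KLS cells, on a log axis; points are 2 DKO and 2 Daxx-WT libraries, short lines are group means, and sites are named by gene and distance of the centre from the gene start. The lower sites of Fosl2, Fosb, Batf and Atf3 start from Daxx-WT means of 67.2 to 373, whereas most higher sites start from Daxx-WT means under 40.

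**Figure D4:**
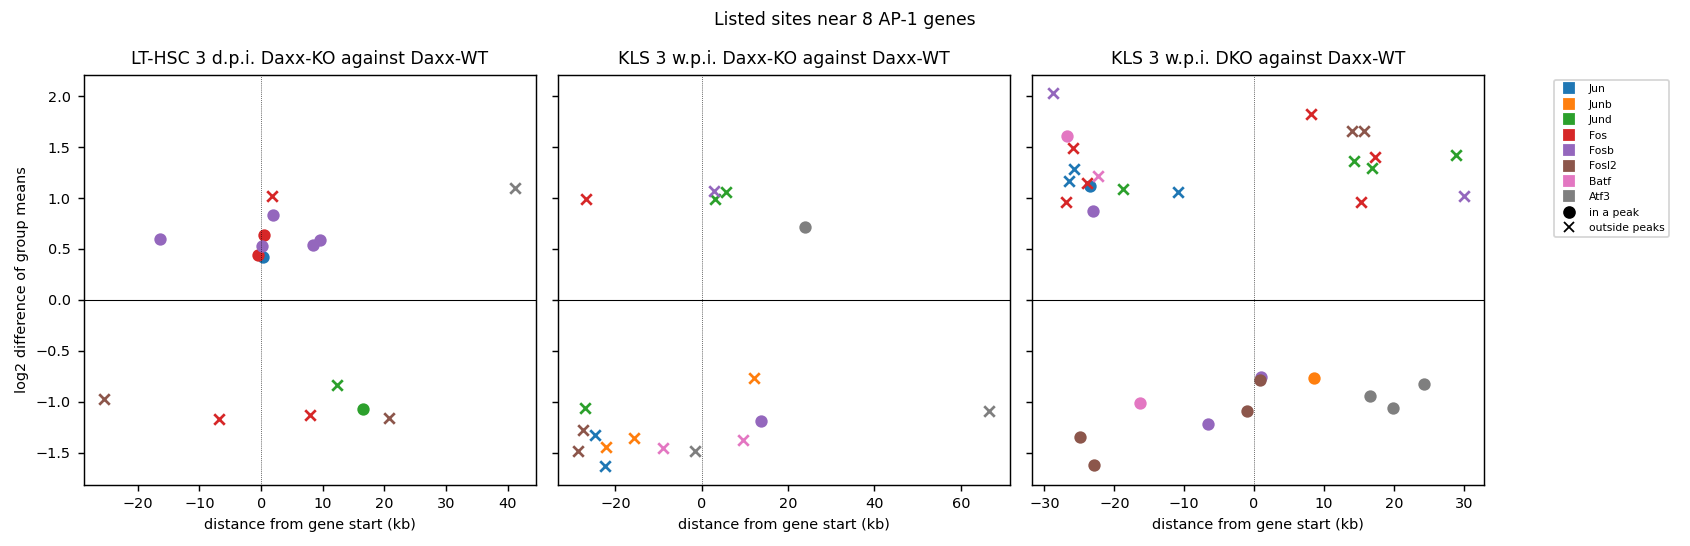
Log2 difference of group means of each listed site against its distance from the gene start in kb, 1 panel per table, coloured by gene. Higher sites within 1 kb of a start are seen only in the LT-HSC 3 d.p.i. panel and lower ones only in the DKO panel.

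The pathway lists in DKO cells had lower promoter sites and no higher ones. The count was 4 of 16 for bZIP genes (Nfe2l2 -0.60, Bach2 -0.70, Maf -0.70 and -0.68, Bach1 -0.85), 3 of 9 for kinases (Mapkapk2 -0.56, Map2k7 -0.61, Map3k8 -0.94), 3 of 17 for immediate early genes (Dusp2 -0.76, Klf4 -0.87, Dusp5 -0.55) and 0 of 6 for serum response and ternary complex factor genes. Over all genes 4.76% had a higher and 11.5% a lower promoter site. Within 30 kb, where the shares over all genes were 66.6% and 48.5%, 15 bZIP genes had a higher and 11 a lower site, 7 and 8 kinases, 13 and 15 immediate early genes, and 5 and 6 serum response and ternary complex factor genes. Nfe2l2 and Map2k7 were thus listed in both directions, higher in LT-HSC Daxx-KO 3 d.p.i. and lower in DKO KLS cells. The difference between those effects was not tested, since the tables hold different cells and were scaled separately.

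Peaks found in 1 genotype only were counted near the AP-1 genes and over the whole lists. In LT-HSCs, 5 of 70 peaks near the genes were in Daxx-KO only (7.14%, list 13.9%) and 3 of 68 in Daxx-WT only (4.41%, list 6.78%). In CMPs it was 2 of 66 (3.03%, list 6.26%) and 14 of 78 (17.9%, list 28.5%). In GMPs it was 2 of 67 (2.99%, list 4.55%) and 11 of 75 (14.7%, list 27.6%). In LT-HSCs 3 d.p.i. it was 9 of 59 (15.3%, list 24.1%) and 3 of 53 (5.66%, list 8.68%), and in KLS cells 9 of 50 (18.0%, list 31.8%) and 4 of 48 (8.33%, list 8.06%). Between DKO and Daxx-WT, 2 of 32 peaks were in DKO only (6.25%, list 21.4%) and 15 of 48 in Daxx-WT only (31.2%, list 48.4%). The side with more unshared peaks was in each cell type the longer list. With lists of equal length the counts turned in CMPs, to 14 in Daxx-KO only and 6 in Daxx-WT only, and the order turned in the other contrasts too. Shares over the whole lists at equal length are not given.

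Some regions recurred in one genotype, and the share of such regions over the whole lists was not counted. A pair of regions near Rtbdn, 33 and 34 kb downstream of the Junb start, were in Daxx-KO and not in Daxx-WT in 2 of the 5 contrasts. The one at 34 kb went the other way in GMPs, with a peak in Daxx-WT and none in Daxx-KO. The one at 33 kb was in no Daxx-WT list, being 832 bp wide in LT-HSCs and 1043 bp in LT-HSCs 3 d.p.i. Also in Daxx-KO and not in Daxx-WT in 2 contrasts were regions 29.2 kb upstream of Junb (Best2), 22 kb downstream of Jund (Gm3336), 23.7 kb downstream of Fos and 25.6 kb upstream of Fosb. The Fos region was 1736 bp wide in Daxx-KO LT-HSCs 3 d.p.i. and 503 bp in KLS Daxx-KO cells. In the other direction, a narrow region 25.1 kb downstream of the Fosb start, in an intron of Rtn2 and 229 to 272 bp wide, was in the Daxx-WT lists of LT-HSCs, CMPs and GMPs and in no Daxx-KO list. A region 16.4 kb upstream of Batf was lost from both CMP and GMP Daxx-KO lists, from peaks of 363 and 265 bp, and a region 21.1 kb downstream of Jund was in the Daxx-WT lists of CMPs and GMPs alone. A region 3.5 kb upstream of Jund was in Daxx-WT and not Daxx-KO in 2 contrasts, and one 2.4 kb upstream of Fosl2 went 2 contrasts in each direction. Regions in a single list numbered 7, of which 1 was in a Daxx-KO list (at Ppm1n, near Fosb) and 6 in a Daxx-WT list. Those at Fosl2 and Atf3 were in the CMP or GMP Daxx-WT lists. These lists were longer (66070 and 65306 peaks) than those of Daxx-KO (50590 and 49677).

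Of the KLS peaks near the genes that Daxx-WT and Daxx-KO shared, 14 of 44 had no DKO peak (31.8%), beside 45.0% of the list. Counted as merged regions, 4 of these lay at Atf3, 3 each at Fosb and Batf, 2 each at Fosl2 and Jund and 0 at Jun, Junb and Fos. The 8 regions of Junb and 4 of Fos that both genotypes held in KLS cells were all present in DKO. None of the 14 regions without a DKO peak lay at the start of one of the 8 genes, and they included the Fosl2 peak 23.2 kb upstream, the Fosb peaks 6.7 and 17 kb upstream, the Atf3 intron peaks and the Batf peaks 23.5 and 16.4 kb upstream. The Fosb peak 17 kb upstream had a fold enrichment of 6.12 and 8.48 in LT-HSCs 3 d.p.i. and of 3.60 and 5.40 in KLS Daxx-WT and Daxx-KO cells. The DKO list was the shortest, and its part in these losses was not tested.

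The share of peaks with a CArG box was higher near the AP-1 genes than over the lists, and that with a Pu.1 motif lower, with no test. In 300 bases around the summit or centre, on both strands, the CArG box was in 4 of 48 peaks near the genes in KLS Daxx-WT cells (8.33%, list 1.33%), in 4 of 53 in LT-HSC 3 d.p.i. Daxx-WT cells (7.55%, list 1.28%) and in 5 of 32 in DKO cells (15.6%, list 1.29%). The lowest share was 1 of 70 in LT-HSC Daxx-KO cells (1.43%, list 1.29%). The AP-1 motif was in 7 of 48 in KLS Daxx-WT (14.6%, list 7.31%) and 3 of 68 in LT-HSC Daxx-WT cells (4.41%, list 7.12%), and its share lay on either side of the list's. The Pu.1 motif was in 2 of 48 in KLS Daxx-WT (4.17%, list 8.05%) and 1 of 75 in GMP Daxx-WT cells (1.33%, list 9.83%), below the list's share in all 11 lists. The CRE, TGACGTCA, was in at most 1 peak per list, and in the peak shown above, 210 bp before the GENCODE start of Jund and after its RefSeq start, which lies 1210 bp further upstream. These are few peaks of 8 genes, most of them the same peaks in each list, and a match describes letters and not a bound site.

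**Figure D5:**
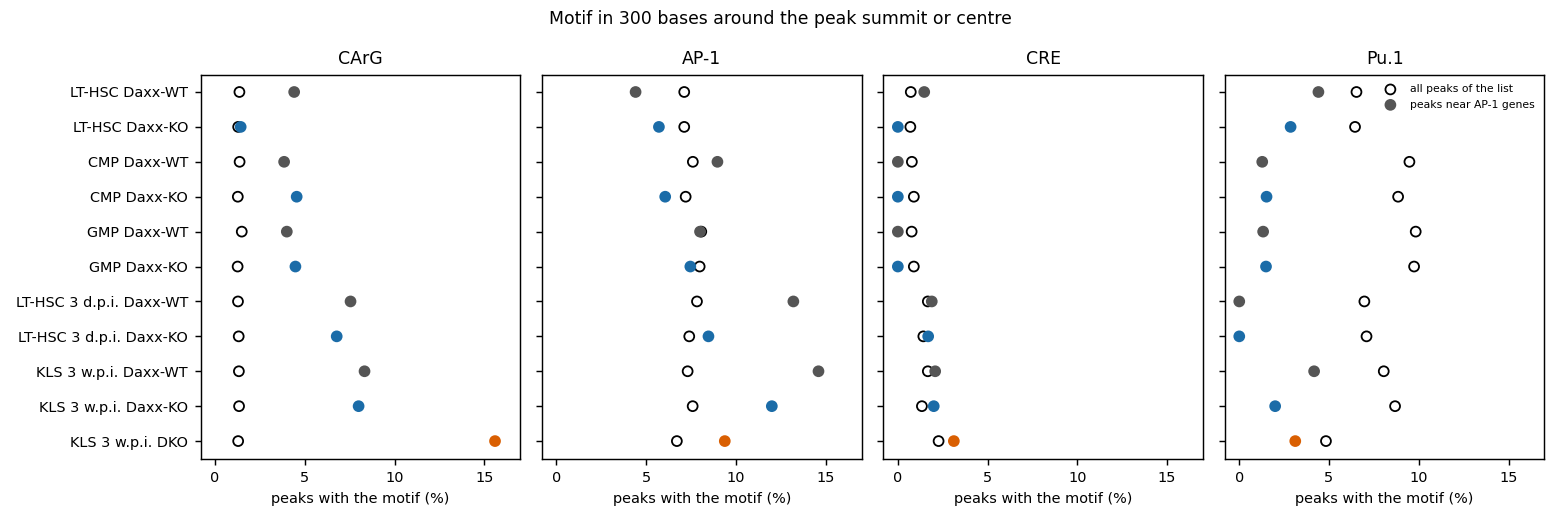
Share of peaks that hold each motif in 300 bases around the summit or centre, in percent; open circles are all peaks of a list and filled circles are the peaks near the 8 AP-1 genes (grey Daxx-WT, blue Daxx-KO, orange DKO). Filled circles lie to the right of open ones for the CArG box and to the left for Pu.1 in every list.

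Over the merged regions the CArG boxes numbered 10. They lay 304 bp upstream of Fos, 262 bp upstream of Fosb, 1446 bp upstream and 2089 bp downstream of the Junb start, 12.2 kb downstream of Fos in a peak present in all 11 lists, and 23.2 kb upstream of Jun, and further ones lay 4.3 and 18.7 kb downstream of Fos, 11.7 kb upstream of Junb and 16.5 kb upstream of Atf3. The peak 7.2 kb upstream of Junb held 4 AP-1 matches, 3 of them in the stretch shown above, and was in all 11 lists, with a fold enrichment of 5.09, 5.87 and 4.40 in KLS Daxx-WT, Daxx-KO and DKO cells. In the RefSeq promoters of the 8 genes, from 250 bases before to 50 after the RefSeq start, none of the 4 motifs was found in any member, beside 5.20% (AP-1), 1.79% (CRE), 3.20% (Pu.1) and 1.63% (CArG) of 32851 promoters. That window ends short of the CArG boxes of Fos and Fosb, so the count of 0 says nothing of them. Motifs were also counted in 300 bases around the centre of listed sites. The higher LT-HSC 3 d.p.i. sites near the genes held 1 CArG box in 10 (1.67% of all higher sites). The lower ones held 1 in 6 (1.28% of all lower sites), so the box was found in both directions. The lower DKO sites held 1 Pu.1 motif in 11 (11.6% of all lower sites) and 2 AP-1 motifs in 11 (7.38%).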

How the data were processed

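ATAC-seq libraries had been trimmed with cutadapt 1.13 and aligned with STAR 2.5.3 to mm10 after CASAVA 1.8.4, and handled with bedtools, as the submitters' processing notes name. Of the 11 peak lists the authors deposited, 1 per group, 6 held positions alone and 5, made by the irreproducible discovery rate, also gave a ratio, the fold enrichment over background. The 3 deposited tables held reads per site and library divided by a constant per library, from diffReps 1.55.6 (600-bp windows moved by 50 bp, negative binomial test, p cut-off 0.0001, per the file headers). Their columns with the authors' direction, log2 fold changes and p-values were not used. The peak caller is not given in the sources used here.

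Peaks and sites were assigned to windows of the gene and 30 kb (GENCODE M21). Peaks were shared from 1 bp of overlap. Levels at sites are group means of scaled reads, with log2 ratios of the means. All sites of a table were fitted with limma 3.58.1 (R 4.3.3) on log2(scaled value + 1), with Benjamini-Hochberg adjustment over all windows tested (413247, 407030 and 446463) and a threshold of 0.05. Since the listed sites were selected on the same libraries, a call is not independent evidence. The fit was tested on simulated data. Sequences are from RefSeq and GRCm38.p6, and motifs were searched in Python 3.11.15. Depth enters as the mean reads per window, and no interval is given for a peak. The 8 genes, the gene lists and the motifs were chosen with earlier results of these data known. Named were peaks in every list or recurring in 1 genotype, every site of a gene with up to 3 sites in a table, otherwise the 3 largest differences and any promoter site; other sites were chosen after their values were seen. Groups came from the labels. Alternatives changed overlap, list length, strength, scaling, pseudocount, filter, adjustment, replicate block and single libraries.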

Additional observations from a re-analysis of the deposited data

Results flagged for a closer look

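A place in an intron of Atf3 was listed in opposite directions in KLS cells. The site centred 23.9 kb from the start was higher in Daxx-KO than in Daxx-WT by a log2 of 0.72, with every Daxx-KO library above both Daxx-WT libraries. The overlapping site centred 24.3 kb from the start was lower in DKO than in Daxx-WT by a log2 of -0.83, with both DKO libraries below both Daxx-WT libraries. Such a lack of overlap held for 99.6% of the listed Daxx-KO sites and 100.0% of the DKO sites. Neither Atf3 site passed limma with Benjamini-Hochberg adjustment (adjusted p 0.859 in Daxx-KO and 0.214 in DKO). The difference between the effects was not tested, because both use the same Daxx-WT libraries and the tables were scaled separately.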

How the results depend on the processing

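The direction of the 58 named sites held under all 323 alternatives (279 moved by less than the spread between libraries, 44 by more, all 44 under scaling by the mean reads per window, and 0 reversed). For most alternatives this was fixed in advance: the libraries of the groups did not overlap at these sites, so leaving out 1 library could not reverse a direction. Only scaling by the mean reads per window could have reversed one. That scaling moved the median log2 difference by 0.41 (LT-HSC 3 d.p.i.), 0.51 (KLS Daxx-KO) and -0.70 (DKO). Limma on it, an alternative chosen after seeing the data, gave 0 higher and 11 lower DKO sites near the genes in place of 17 and 5, and 3310 higher and 13843 lower over the table. Leaving out single libraries gave 0 to 13 higher and 0 to 4 lower DKO calls, with 0 of either without either DKO library and 11 and 2 without Daxx-WT replicate 1. Adjusted over the listed sites alone, 5 higher and 6 lower sites passed in LT-HSCs 3 d.p.i. It was 5 and 13 in KLS Daxx-KO and 21 and 11 in DKO cells. With a pseudocount of 5, 2 lower KLS Daxx-KO sites passed. Shares of the whole tables under both settings are not given, so these counts have no reference. The unadjusted limma p was under 0.05 at 11454 of 11927, 16749 of 17311 and 50052 of 50928 listed sites, in the same order. Within peaks of either group, 8 higher and 1 lower sites remained in LT-HSCs 3 d.p.i., 1 higher and 1 lower in KLS Daxx-KO, and 3 higher and 11 lower in DKO cells.

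For lists of equal length, the longer list was cut to its widest peaks in LT-HSCs, CMPs and GMPs. In the other contrasts it was cut to the peaks of highest fold enrichment. Lists of equal length gave 5 Daxx-KO-only and 7 Daxx-WT-only peaks in LT-HSCs, 14 and 6 in CMPs and 14 and 4 in GMPs. They gave 3 and 19 in LT-HSCs 3 d.p.i., and 1 and 19 in KLS Daxx-KO. In the DKO contrast they gave 15 DKO-only and 7 Daxx-WT-only peaks. Among peaks at or above the median fold enrichment, there were 8 Daxx-KO-only and 0 Daxx-WT-only peaks in LT-HSCs 3 d.p.i., and 0 and 2 in KLS Daxx-KO. In the DKO contrast there were 4 DKO-only and 6 Daxx-WT-only peaks. For cut lists and for stronger peaks, shares over the whole lists are not given, so these counts have no reference. The replicate numbers share only a number: deviations of same-numbered libraries had a correlation of 0.03 (Daxx-KO) and -0.0 (DKO). With a replicate block on the numbers 1 and 2, 0 sites near the genes passed in KLS Daxx-KO and 18 higher and 5 lower in DKO cells, and calls over the tables went from 0 to 2296 and from 41855 to 42605. The block fit used libraries 1 and 2 of each group alone and so left out KLS Daxx-KO library 3. The change from 0 to 2296 thus joins the block with the loss of a library. No block was fitted to the LT-HSC 3 d.p.i. table, whose columns do not show which library has which label number (libraries there are numbered in the order of the header), or to the peak lists, which are 1 per group. The planned count test on reads recovered from the scaled values was not run, because the values are joined in text cells. Depth limits the lower KLS Daxx-KO sites, at means of 7.05 to 32.1 scaled reads.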
